A study of Mus musculus with 2 samples.

Results

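The genes described here are those of red blood cell formation and heme synthesis, without the globins, in the embryonic facial prominence of the mouse. The members came from a list of 38 symbols, and 37 of these were matched to a row of the gene tables by gene identifier, out of 42462 genes with a symbol. Ahsp, the chaperone of free alpha globin, was not analysed here. The 37 genes were 9 transcription factors, the erythropoietin receptor, 13 genes of heme synthesis and iron supply, 10 genes of the red cell membrane and its skeleton, and 4 other red cell genes. RNA-seq was done on total RNA of over 200 nt from tissue of healthy B6NCrl embryos at embryonic day 10.5, the facial prominence being the set of outgrowths that form the face. Tissue of 69 embryos was pooled for replicate 1 and tissue of 51 embryos for replicate 2, with both sexes in each pool. The mirVana kit was used for extraction, 10 ng of RNA went into each library with spike-in RNAs, and a SMARTer Ultra Low manual is linked under the extraction protocol. The series held 1 group, with no treatment, control, other age or other tissue, so the values describe these 2 pools and no p-value was computed.

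Red blood cells of the early mouse embryo arise in the yolk sac as large nucleated primitive cells, which circulate through every vascularised tissue and go on maturing in the bloodstream. GATA1, with its cofactor FOG1, and KLF1 switch on the genes for globins, heme synthesis and the red cell membrane, while TAL1, LMO2 and LDB1 form a complex with GATA factors on many of the same genes. Heme is made in a chain of enzymes that starts and ends in the mitochondrion, and the spectrin skeleton is tied to the membrane by ankyrin, protein 4.1 and adducin. Several members work in other cells too, because every cell makes heme and most cells have a spectrin skeleton.

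All 37 members were detected, meaning at least 1 TPM (TPM is the level of a gene per length of transcript, scaled to the same total in each library) in both pools. Of 21474 protein coding genes with a symbol, 58.2% passed the same threshold. Mean levels of the members ran from 1.47 TPM for Zfpm1 to 109 TPM for Epb41, with a median of 12.3 TPM, and the median of detected protein coding genes was 20.1 TPM. The 20 members that other cells use too had a median of 30.1 TPM. The 17 members expressed mainly in red cells and megakaryocytes had a median of 5.04 TPM, and the highest of them was Alas2 at 40.9 TPM. The summed TPM of these 17 genes was 164 in replicate 1 and 155 in replicate 2, which came to 1.03% and 1.12% of the summed TPM of 8 globin genes. In this bulk tissue, fewer cells of a type and less RNA per cell cannot be told apart.

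**Figure D1:**
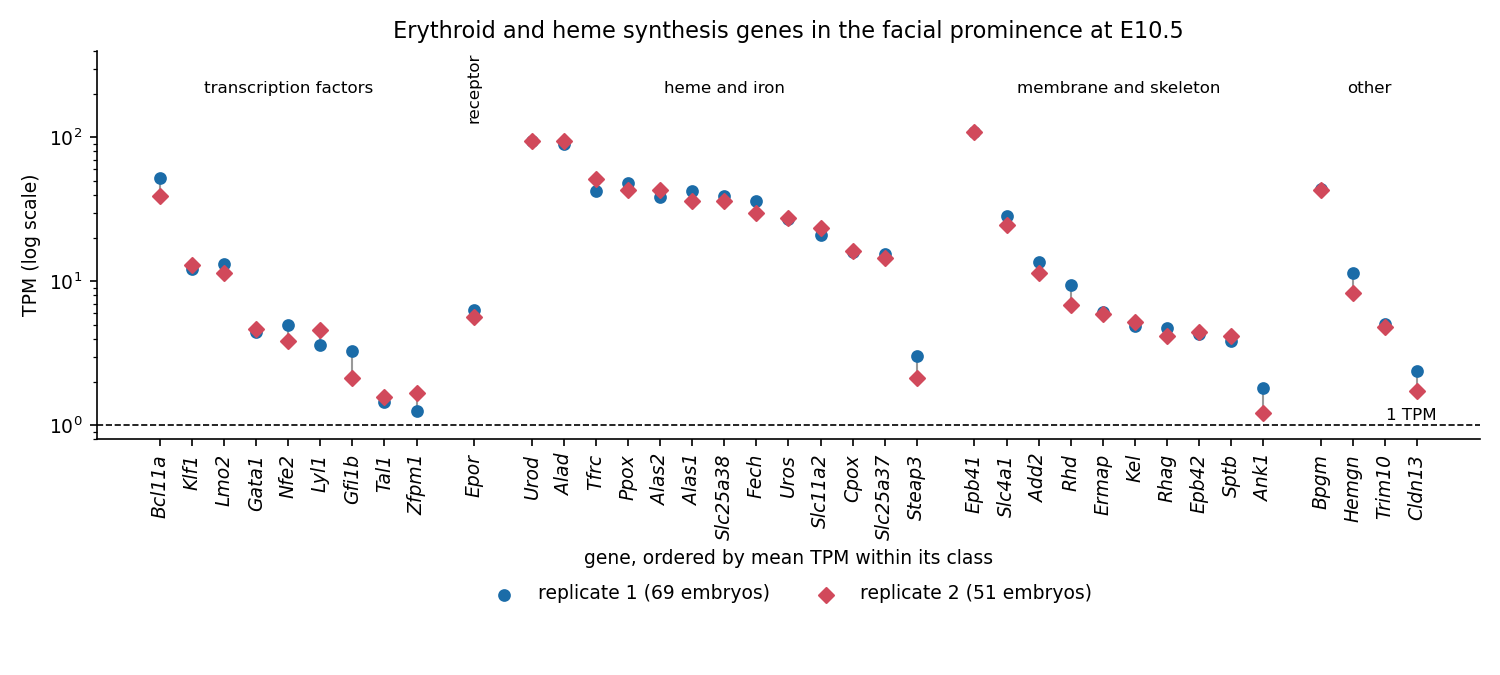
TPM of each of the 37 members (log scale) in replicate 1 (circles) and replicate 2 (diamonds), grouped by class and ordered by mean level, with a dashed line at the detection threshold of 1 TPM. Heme and iron genes mostly lay above 10 TPM, while 6 of the 9 transcription factors and 7 of the 10 membrane and skeleton genes lay below it, and markers of the same gene overlap where the pools were close.

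The tissue label was checked against markers. All 5 markers of facial mesenchyme were detected, with a summed level of 578 TPM in replicate 1 and 546 in replicate 2. By log2 ratio 3 of the 5 were lower in replicate 2 and 2 were higher. The homeobox gene Msx1 stood at 281 and 303 TPM, and Alx1 fell most, from 78.8 to 47.8 TPM (log2 ratio of -0.70). Markers of other cells that can hold members of the set were present as well. The 3 embryonic globins of primitive red cells summed to 10688 and 9660 TPM, the 6 endothelial markers to 163 and 158, and the 5 neuronal markers to 482 and 487. Of 6 markers of megakaryocytes and platelets 4 were detected, and their summed level was 61.1 TPM in replicate 1 and 38.7 in replicate 2. The 5 macrophage markers summed to 34.0 and 27.3 TPM. Of 4 liver and yolk sac markers, Ttr (4.72 and 5.08 TPM) and Apoa1 (1.17 and 1.18) were detected, Afp was at 0.11 and 1.09 TPM, and Alb, the albumin gene, was listed at 0 in both pools. Muscle markers differed most between the pools. All 5 were at least 2-fold apart, with Myod1 and Myog of skeletal muscle lower in replicate 2 (log2 ratios of -1.64 and -2.22) and Actc1, Tnnt2 and Myh7, which the heart also expresses, higher there (1.07, 2.05 and 2.39). Of the 5 only 1, Actc1, reached 1 TPM in both pools, at 8.10 and 16.8 TPM. The ratios of Myod1 and Myog rested on few counts, 78 and 23 for Myod1 and 98 and 19 for Myog. The expected counts over genes came to 40059176 for replicate 1 and 39531700 for replicate 2, and those of single members ranged from 44 to 11759.

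Transcription factors formed the class with the lowest median, 4.44 TPM over 9 genes. Klf1, which encodes the zinc finger factor that activates adult beta globin and many membrane genes (ENSMUSG00000054191, chromosome 8, 84901928 to 84905291), was at 12.2 TPM in replicate 1 and 13.0 in replicate 2. Gata1, the master regulator of red cells and megakaryocytes (ENSMUSG00000031162, chromosome X, 7959260 to 7978071), was at 4.43 and 4.68 TPM. Both genes lay slightly higher in replicate 2, with means of 12.6 ± 0.573 and 4.56 ± 0.177 TPM (SD, n = 2). Zfpm1, which encodes the GATA1 cofactor FOG1, had the lowest mean of all members at 1.26 and 1.67 TPM, although Ank1 and Tal1 were lower in replicate 2. Tal1, the basic helix-loop-helix factor of the GATA1 complex, was close to it at 1.46 and 1.58 TPM. Its relative Lyl1, also used by endothelium and other blood cells, was at 3.59 and 4.60 TPM, higher in replicate 2.

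The other transcription factors were lower in replicate 2. Lmo2, the LIM-only bridge between TAL1 and GATA factors in blood and endothelium, was at 13.2 TPM in replicate 1 and 11.4 in replicate 2. Nfe2, a basic leucine zipper factor of megakaryocytes and red cells, was at 4.99 and 3.88 TPM. Gfi1b, a repressor required for red cell and platelet formation (ENSMUSG00000026815, chromosome 2, 28609450 to 28621982), was at 3.29 and 2.15 TPM. Bcl11a stood apart from the class at 52.6 and 39.2 TPM. BCL11A silences embryonic and fetal globin genes and is also a factor of developing neurons, and which cells carried its RNA was not tested. By mean level the order was Bcl11a, Klf1, Lmo2, Gata1, Nfe2, Lyl1, Gfi1b, Tal1 and Zfpm1. Neighbours did not differ beyond the replicate spread between Klf1 and Lmo2, among Gata1, Nfe2 and Lyl1, or between Tal1 and Zfpm1.

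That spread, used for every comparison of levels between genes, was the replicate SD pooled over the 200 protein coding genes nearest in level. These were taken from all with a nonzero TPM in either pool, so genes below the detection threshold were included. Differences were taken as log2(TPM + 0.1), and the intervals are 95% intervals. Errors of TPM that are particular to a gene are not covered, and folds are on the same scale. Over all 37 members in order of level, 8 of 36 neighbouring pairs differed by more than this spread and 28 did not. Neighbours were set by these same levels, which largely fixes the sign of their difference. The intervals were not adjusted for the number of pairs.

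Members were also set against relatives that work in the same family or complex, in 25 pairs. Of these, 22 differed by more than the spread, with the member named first higher in 7 and lower in 15. Gata2, the factor of blood progenitors and endothelium, was at 18.3 and 17.0 TPM, 3.81-fold (2.88 to 5.04) above Gata1. Klf3, a widely expressed repressor that competes for the sites of KLF1, exceeded Klf1 2.29-fold (1.93 to 2.70). Lmo4 exceeded Lmo2 4.51-fold, and Lyl1 exceeded Tal1 2.57-fold. The widely expressed relatives of Nfe2 were also higher, Nfe2l1 12.7-fold and Nfe2l2, the factor of the oxidative stress response, 6.24-fold. Gfi1b exceeded its relative Gfi1, which acts in granulocytes and lymphocytes and was listed at 0.03 and 0.05 TPM. As Gfi1 lay below the pseudocount, the size of this difference was set by it, with a log2 difference of 4.31 at a pseudocount of 0.1 TPM and 1.82 at 1 TPM. Bcl11a exceeded Bcl11b 6.18-fold. Zfpm1 and Zfpm2, the FOG factor of heart and gonad at 1.05 and 0.72 TPM, did not differ beyond the spread (log2 difference 0.68, interval -0.24 to 1.59).

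All 14 further regulators that work with these factors were detected, with a median of 5.01 TPM. The E proteins of Tcf3, partners of TAL1, were highest at 191 and 197 TPM, followed by the cell cycle factor E2f4 (102 and 111) and Ldb1 (82.1 and 83.4), which links distant regulatory sites. Stat5a, a signal transducer downstream of the erythropoietin receptor, was lowest at 1.45 and 1.60 TPM. None of the 14 was 2-fold apart between the pools.

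Promoters of the members were read from RefSeq on GRCm38.p6, as windows of 300 bases from 250 before to 50 after each annotated start. The table held 39 windows for 29 of the 37 members. Searched on both strands were a GATA motif (GATA after an A or a T and before an A or a G), a KLF motif (CCNCNCCC) and an NFE2 motif (TGAGTCA, which AP-1 factors also bind). In no member window did matches of different motifs share a base. The promoters of Klf1 and Alas2 are shown because each holds a GATA match upstream of its start, and each stretch stops before the first transcript start annotated in GENCODE. Capitals mark the match.
Klf1 (chr8:84901782-84901927, plus strand): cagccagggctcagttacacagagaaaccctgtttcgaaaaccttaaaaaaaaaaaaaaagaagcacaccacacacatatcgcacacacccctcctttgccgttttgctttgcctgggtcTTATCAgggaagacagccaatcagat
Alas2 (chrX:150547217-150547374, plus strand): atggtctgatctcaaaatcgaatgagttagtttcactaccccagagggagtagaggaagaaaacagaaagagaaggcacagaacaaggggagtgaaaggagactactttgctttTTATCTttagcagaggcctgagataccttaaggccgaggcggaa

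A GATA match was present in 11 of 13 windows of the members expressed mainly in red cells and megakaryocytes (84.62%), and in 8 of 26 windows of the members that other cells use too (30.77%). Over all 32851 windows of the table the share was 29.76%. The KLF motif had another distribution, with 7 of 13 windows (53.85%) in the first group, 22 of 26 (84.62%) in the second and 49.47% of all windows. The NFE2 motif was found in 2 of 39 member windows, those of Kel and Trim10, against 5.2% of all windows. A match is a run of letters and no measure of binding, and the split into groups was made with earlier results of these data known. The matches nearest to the RefSeq start are shown with 10 bases on either side for the other 9 genes of the first group and for the inner of 2 windows of Uros, which lies within the gene. By GENCODE, the stretches of Hemgn and Uros lie downstream of a transcript start, at 46404236 and 133702616, and the Kel match reaches the first base of Kel-201.
Gfi1b (chr2:28622087-28622112, minus strand): tgtgaagtttTGATAAgcaaatgtgg
Epor (chr9:21963615-21963640, minus strand): tggctgtagcTTATCTgtccccagcc
Uros (chr7:133702553-133702578, minus strand): tccctcagccTTATCAgtgacagagg
Epb42 (chr2:121037088-121037113, minus strand): ctctatttccTTATCTcgttcaaaca
Rhag (chr17:40811108-40811133, plus strand): tcctctgctcTTATCAacactataca
Rhd (chr4:134864483-134864508, plus strand): cggcagcctgAGATAAgacctttggc
Kel (chr6:41704329-41704354, minus strand): gttccctcacTGATAAgcaggctcca
Ermap (chr4:119190047-119190072, minus strand): aacgctcgctTTATCAggggtgggca
Hemgn (chr4:46404181-46404206, minus strand): ctgtgcagtgTGATAAagaaagtgga
Trim10 (chr17:36869401-36869426, plus strand): ctcaagagccTTATCTgagtccccac

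**Figure D2:**
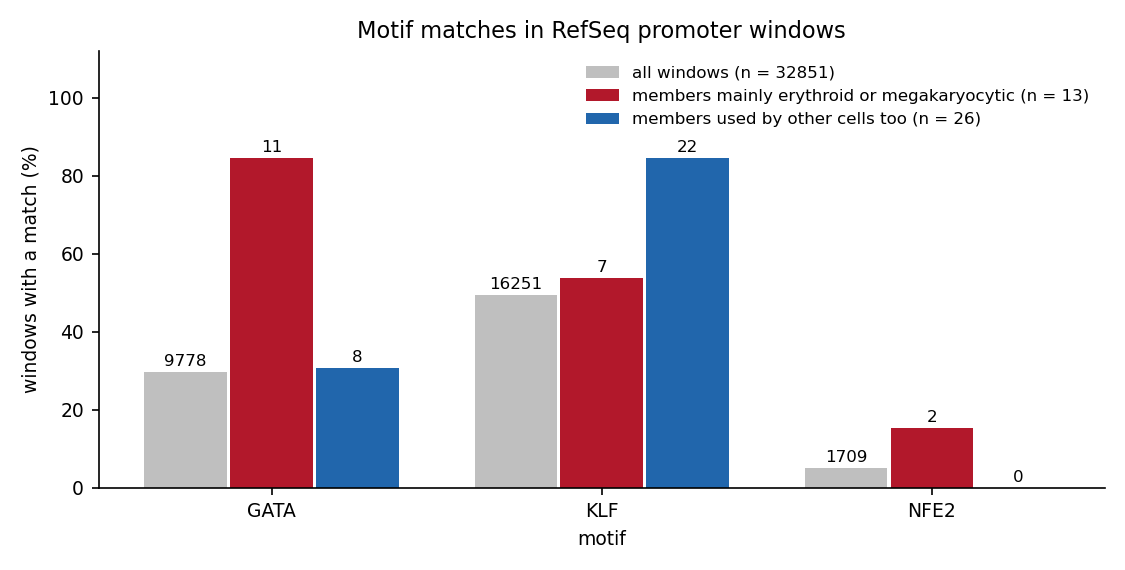
Percent of RefSeq promoter windows that hold each motif, for all windows, for windows of members expressed mainly in red cells and megakaryocytes and for windows of members that other cells use too, with the number of windows holding a match above each bar. The GATA motif is at 84.62% in the second group against 29.76% of all windows, and the KLF motif is highest in the third group at 84.62%.

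Epor, the receptor through which erythropoietin keeps red cell precursors alive, was at 6.32 TPM in replicate 1 and 5.70 in replicate 2. It has 1 annotated transcript and lies on chromosome 9, 21958897 to 21963506.

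Genes of the heme synthesis enzymes had higher levels than most transcription factors, with a median of 40.1 TPM over 8 members and a summed level of 392 TPM in replicate 1 and 385 in replicate 2. The first step, which sets the rate of the pathway, has a gene for red cells and a gene for all other cells. Alas2, the red cell gene (ENSMUSG00000025270, chromosome X, 150547375 to 150570638), was at 38.7 and 43.0 TPM, higher in replicate 2. Alas1, the gene of other cells, was at 42.7 and 35.9 TPM, higher in replicate 1. The order of the pair thus turned between the pools, with a log2 difference of Alas2 over Alas1 of -0.14 in replicate 1 and 0.26 in replicate 2. Their mean difference of 0.06 (-0.11 to 0.23) was within the replicate spread.

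The later enzymes differed from step to step. Alad, which joins the first pathway product into a pyrrole ring, was at 89.8 and 95.0 TPM. Urod, which trims the side chains of uroporphyrinogen, was the highest enzyme gene among the members at 93.8 and 94.1 TPM. Both stood above Uros, the gene of the enzyme that closes the tetrapyrrole ring, at 27.1 and 27.5 TPM, and above Cpox, the gene of coproporphyrinogen oxidase, at 16.1 and 16.3 TPM. The pools lay within a CV of 1% for Uros, Urod and Cpox. Ppox, the gene of the next oxidase, was at 48.3 and 43.3 TPM, and Fech, whose enzyme inserts the iron, at 36.0 and 30.0 TPM, and both were lower in replicate 2. The order of levels was Urod, Alad, Ppox, Alas2, Alas1, Fech, Uros and Cpox. Urod and Alad did not differ beyond the spread, nor did Ppox and Alas2 or Alas2 and Alas1, while the other 4 neighbouring pairs did. Of these 4, the log2 intervals of Alas1 over Fech (0.07 to 0.44) and Fech over Uros (0.04 to 0.49) came close to 0.

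**Figure D3:**
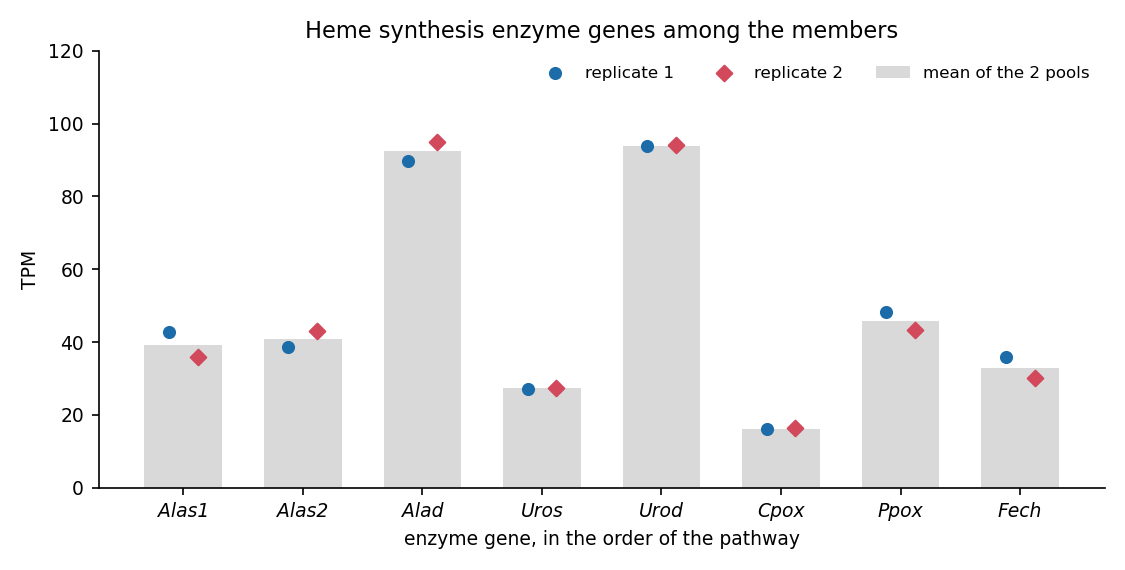
TPM of the 8 heme synthesis enzyme genes among the members, in the order in which the enzymes act, with Alas1 and Alas2 encoding the same first step. Bars give the mean of the 2 pools, circles replicate 1 and diamonds replicate 2, and the genes for Uros and Cpox are lowest at 27.3 and 16.2 TPM.

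Beyond the members, 13 of 13 other genes of the pathway were detected, with a median of 53.6 TPM. These cover transport of porphyrins, assembly of iron-sulfur clusters and control of ALAS. The highest were Pgrmc1, a heme-binding partner of ferrochelatase, at 285 and 274 TPM, Glrx5, a glutaredoxin of iron-sulfur cluster assembly, at 211 and 224, and Tmem14c, a mitochondrial carrier of porphyrin precursors, at 159 and 162. Flvcr1, a heme exporter, was lowest at 5.85 and 6.20 TPM. All 4 genes of heme breakdown were detected, from Hmox1, the inducible heme oxygenase, at 17.1 and 17.3 TPM to Hmox2, its constitutive form, at 77.3 and 70.4 TPM.

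Of the carriers that feed the mitochondrion, Slc25a38, the glycine carrier for the first step, was at 39.1 and 36.2 TPM. Slc25a37, the iron carrier mitoferrin 1 of red cells, was at 15.5 and 14.5 TPM. Both were slightly lower in replicate 2, and Slc25a38 exceeded Slc25a37 2.50-fold (2.17 to 2.87). Mitoferrin 1 in turn exceeded Slc25a28, the mitoferrin 2 gene of other tissues at 6.91 and 6.14 TPM, 2.28-fold (1.77 to 2.95).

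Iron uptake was led by Tfrc, the transferrin receptor of dividing cells and red cell precursors (ENSMUSG00000022797, chromosome 16, 32608920 to 32632794), at 42.2 TPM in replicate 1 and 51.4 in replicate 2. Slc11a2, the DMT1 gene whose product moves iron out of the endosome, was at 21.1 and 23.6 TPM. Steap3, the endosomal ferric reductase of red cells, was at only 3.02 and 2.14 TPM. Tfrc and Slc11a2 were higher in replicate 2 and Steap3 was lower there. Tfrc exceeded Tfr2, the iron sensor of hepatocytes at 1.11 and 0.87 TPM, 43.1-fold (28.6 to 64.8). Slc11a2 exceeded Slc11a1, the macrophage form, 13.2-fold (9.36 to 18.7), and Steap2 exceeded Steap3 2.38-fold (1.65 to 3.43). In a list of 9 other iron genes 8 were detected, led by the ferritin genes Ftl1 (4855 and 4574 TPM) and Fth1 (1203 and 1148) and by the iron chaperone Pcbp1 (472 and 495). Tfr2 was the exception.

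Alas2 and Tfrc are known for iron-responsive elements, hairpins in the RNA that iron regulatory proteins bind when iron is scarce. This blocks translation of ALAS2 and protects the RNA of TFRC from decay. Sites of this shape were searched in the UTRs of GENCODE M21 transcripts as 17 bases, with a C, 5 stem bases, the loop CAGTGN and 5 bases that pair with the first 5, G-T pairs allowed. Such a site lay in a 5′ UTR of 31 of 22500 coding genes (0.138%) and in a 3′ UTR of 144 (0.64%). Among the members, 1 gene had one in a 5′ UTR, Alas2, and 1 gene in a 3′ UTR, Tfrc, with 4 sites. The pattern misses a stem with a bulge or with a base that does not pair. A member without a match, Slc11a2 included, may therefore still hold an element. The sites found are shown on GRCm38 with the loop in capitals.
Alas2 5′ UTR, site 1 (chrX:150547464-150547480, plus strand): cgtcctCAGTGCagggc
Tfrc 3′ UTR, site 1 (chr16:32631225-32631241, plus strand): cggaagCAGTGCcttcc
Tfrc 3′ UTR, site 2 (chr16:32631604-32631620, plus strand): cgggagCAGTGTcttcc
Tfrc 3′ UTR, site 3 (chr16:32631669-32631685, plus strand): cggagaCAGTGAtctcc
Tfrc 3′ UTR, site 4 (chr16:32631716-32631732, plus strand): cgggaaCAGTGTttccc

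The transcripts that hold the site carried 94.8% of the TPM of Alas2 in replicate 1 and 87.4% in replicate 2. For Tfrc, transcripts with at least 1 of the sites, coding or not, carried 85.6% and 85.9%, the leading one being Tfrc-201 at 61.7% and 65.2%. Outside the members, Fth1, Ftl1 and the iron exporter gene Slc40a1 also had a 5′ site of this shape.

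The membrane and skeleton class spanned the widest range of levels, around a median of 5.55 TPM. Epb41, which encodes protein 4.1 and links spectrin to actin (ENSMUSG00000028906, chromosome 4, 131923413 to 132075321), was at 109 and 109.8 TPM. Slc4a1, the anion exchanger band 3 of red cells and kidney, was at 28.6 and 24.8 TPM, lower in replicate 2. Add2, the adducin that caps actin filaments in red cells and neurons, was at 13.6 and 11.5 TPM. Sptb, the red cell beta spectrin that muscle and brain also use, was at 3.84 and 4.16 TPM, and Epb42, the protein 4.2 gene of red cells, at 4.32 and 4.46. Ank1, the ankyrin that ties spectrin to band 3, was lowest at 1.83 and 1.22 TPM. Only Epb41 and Slc4a1 of this class lay above the median of detected protein coding genes.

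The 4 blood group genes lay close together. Rhd, the gene of the Rh blood group protein, was at 9.44 and 6.89 TPM, higher in replicate 1. Its partner Rhag, needed to bring the Rh complex to the membrane, was at 4.73 and 4.17 TPM, and Rhd exceeded it 1.80-fold (1.31 to 2.47). Kel, a membrane peptidase, was at 4.89 and 5.19 TPM and Ermap, an immunoglobulin family protein of the red cell surface, at 6.15 and 5.96 TPM.

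The skeleton genes among the members were mostly below their widely used relatives. Sptbn1 was at 56.2 and 54.0 TPM, 13.5-fold (10.3 to 17.5) above Sptb. Ank3 and Ank2 exceeded Ank1 18.3-fold (12.8 to 26.1) and 13.8-fold (9.64 to 19.7), and Add1 and Add3 exceeded Add2 10.5-fold and 3.75-fold. Protein 4.1 was the exception, since Epb41 exceeded Epb41l2, a relative of most tissues, 3.25-fold (2.79 to 3.79). Like Sptb, Ank1 and Add2, Epb41 was counted with the members that other cells use too. Epb41 exceeded Epb42 24.4-fold. Slc4a1 and its widely used relative Slc4a2, at 30.1 and 27.5 TPM, did not differ beyond the spread (log2 difference -0.11, interval -0.32 to 0.10). In a list of 12 other membrane genes 11 were detected, led by the glucose transporter Slc2a1 (125 and 148 TPM), Gypc (29.8 and 25.4) and the scaffold gene Mpp1 (20.9 and 19.5). The water channel Aqp1 was lowest at 0.64 and 0.24 TPM and was not detected.

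**Figure D4:**
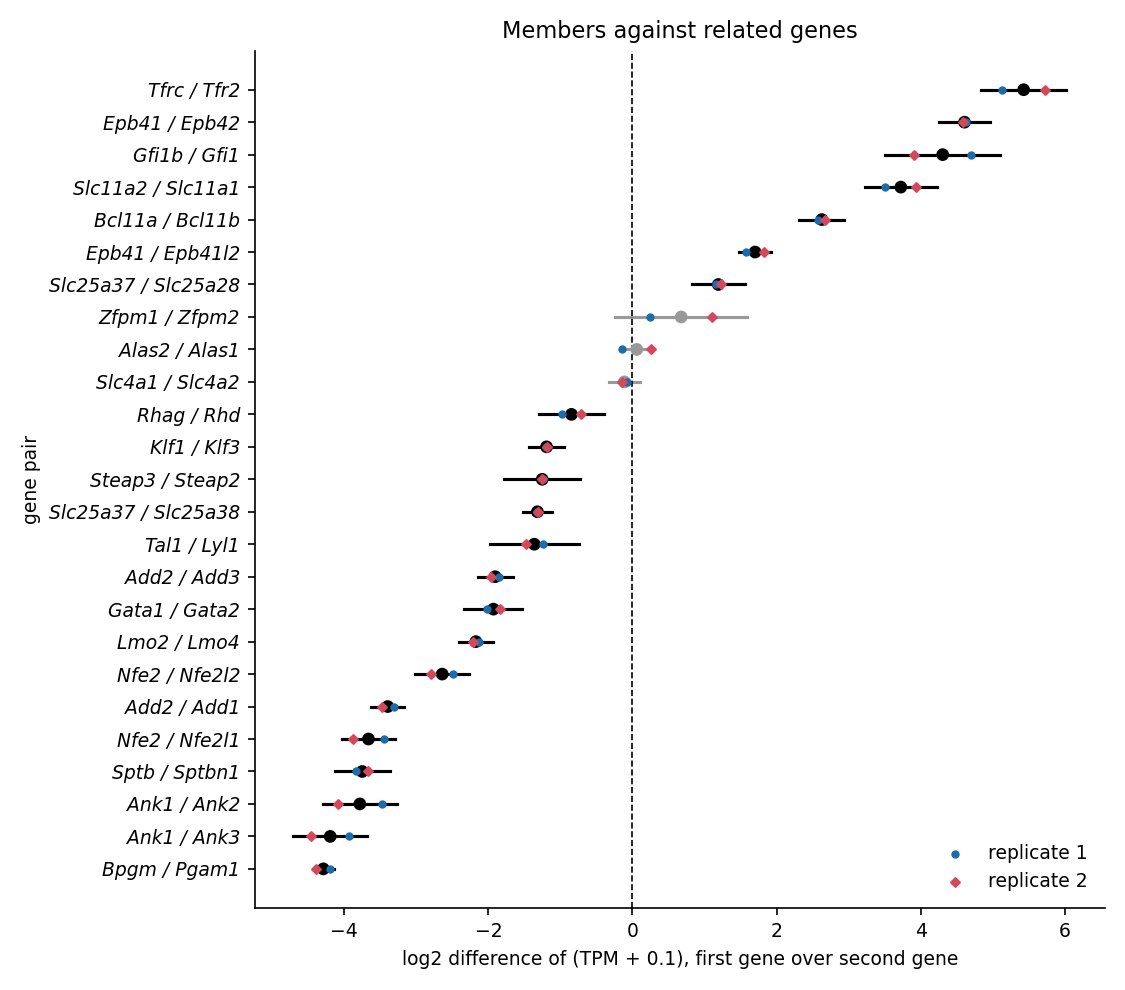
Log2 difference of (TPM + 0.1) between the first and the second gene of 25 pairs. Large points give the mean of the 2 pools with its 95% interval, black for the 22 pairs beyond the pooled spread and grey for the 3 pairs within it, and small points give each pool. Tfrc over Tfr2 is highest at 5.43 and Bpgm over Pgam1 lowest at -4.29.

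Among the other red cell genes, Bpgm, whose enzyme makes the 2,3-bisphosphoglycerate that lowers the oxygen affinity of hemoglobin, was at 44.1 and 42.9 TPM. Pgam1, its relative in general glycolysis, stood 19.6-fold (17.7 to 21.6) above it. Hemgn, a nuclear protein of red cell precursors, was at 11.5 and 8.32 TPM. Trim10, a ring finger protein of late red cell maturation, was at 5.10 and 4.84 TPM, and Cldn13, a claudin found in mouse red cell precursors, at 2.38 and 1.72. All 4 were lower in replicate 2, by 0.05 to 0.44 on the log2 scale. Of 7 further enzyme and maturation genes 5 were detected, led by the peroxiredoxin Prdx2 (1073 and 997 TPM), the mitophagy receptor Bnip3l (346 and 345) and the carbonic anhydrase Car2 (65.3 and 60.8). Car1, the carbonic anhydrase of adult red cells, was at 0.13 and 0.12 TPM, which rested on 3 counts in each pool.

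Several members were read from more than 1 start or carried much non-coding product. With at least 2 annotated transcripts and a mean of 5 TPM or more there were 19 members, and the leading transcript was the same in both pools for 16 of them (84.2%), against 93.8% of all 7738 such genes. The 3 exceptions were Alas1, Uros and Hemgn. Hemgn has 2 transcripts whose starts lie apart, at 46413506 and 46404236 on chromosome 4. The transcript from the outer start held 52.6% of the gene in replicate 1 and 37.6% in replicate 2, and the one from the inner start held 47.4% and 62.4%. In TPM the outer transcript was at 6.06 and 3.13 and the inner at 5.46 and 5.20, so most of the difference of Hemgn between the pools was in the outer one.

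For Uros, 6 transcripts with starts between 133708958 and 133709281 on chromosome 7 held 91.7% and 93.9% of the TPM. The transcript from the start near the inner window, at 133702616, held 3.36% and 1.49%. The lead among the outer transcripts passed from Uros-203 (31.0% and 22.2%) to Uros-204 (28.7% and 43.9%). For Alas1, a transcript annotated without a coding sequence, Alas1-206, held 34.8% and 34.0%, and Alas1-201 held 32.8% and 42.9%. Slc11a2 was split between Slc11a2-205 (44.8% and 49.5%) and Slc11a2-201 (43.7% and 40.9%). Bcl11a was led by Bcl11a-204 (42.1% and 45.7%), and Epb41, with 18 annotated transcripts, by Epb41-203 (37.8% and 33.4%).

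Products annotated as retained introns held 41.8% and 39.6% of Ppox, 31.4% and 26.9% of Tfrc, and 22.8% and 24.0% of Urod. Transcripts annotated as processed, without a coding sequence, held 60.0% and 52.0% of Epb42. The TPM of these genes therefore does not count coding RNA alone. Exons of 11 members share bases with a gene on the opposite strand, and no source used here says whether strand was used in the counting. The widest overlaps were those of Ppox with B4galt3 (17.5% of the exonic bases of Ppox, with B4galt3 at 59.7 and 57.4 TPM) and of Alas2 with Apex2 (12.9%, with Apex2 at 26.2 and 26.8 TPM), and the part of these neighbours in the levels of Ppox and Alas2 was not tested.

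Between the pools no member differed by 2-fold after TMM scaling of the rounded expected counts. Of 14038 genes whose mean count reached 50, 0.684% were at least 2-fold higher in replicate 1 and 0.556% at least 2-fold higher in replicate 2. The log2 ratio of replicate 2 over replicate 1 had a median of -0.05 over the members and 0.00 over all genes. It was negative for 22 members and positive for 15, and over the 14038 genes it was negative for 6872 and positive for 7166. When the libraries were scaled by the spike-ins, the median of all genes moved to -0.21 and that of the members to -0.26. The median of the members lay 0.05 below that of all genes with this scaling and also with TMM. The share of all genes lower in replicate 2 was not taken with the spike-ins, so no count of members is given for them. Ratios are given relative to TMM scaling from here on.

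All differences were below 2-fold, and those of members with few counts had wide counting intervals. Gfi1b was lower in replicate 2 at 90 counts against 141, a log2 ratio of -0.60 with a counting interval of -0.98 to -0.22. Bcl11a followed at -0.50 (-0.56 to -0.44), then Ank1 (-0.45), Steap3 (-0.44), Hemgn (-0.44), Rhd (-0.42) and Cldn13 (-0.42). In the other direction Zfpm1 was at 0.43 (0.07 to 0.79), Lyl1 at 0.38, Tfrc at 0.33 (0.27 to 0.38) and Tal1 at 0.28. Of the genes named here, the intervals of Cldn13 (-0.98 to 0.14) and Tal1 (-0.04 to 0.61) included 0. These intervals cover counting error only and say nothing of the variation between pools of embryos. They left out 0 for 17 of 37 members, 11 of them lower in replicate 2, where 18.6% of all 14038 genes were called by the same rule, and 6 higher, where 20.9% were.

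Markers of other blood cells also differed between the pools. Of the 6 megakaryocyte and platelet markers 4 had enough counts, and all 4 were lower in replicate 2, with Ppbp, a platelet chemokine gene, at -1.01 and Pf4, the platelet factor 4 gene, at 43.5 and 28.3 TPM. Of those with too few counts, Gp9 was close between the pools at 44 and 42 counts, and Gp1ba was lower in replicate 2 at 42 and 14. The 4 macrophage markers with enough counts were lower in replicate 2 by 0.23 to 0.45. Gfi1b and Nfe2, which megakaryocytes also express, were also lower, at -0.60 and -0.34, while Gata1, which they express as well, was at 0.11 and Zfpm1 at 0.43. The 8 globins summed to 15872 TPM in replicate 1 and 13804 in replicate 2. The part of these cells in the differences of the members was not tested.

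**Figure D5:**
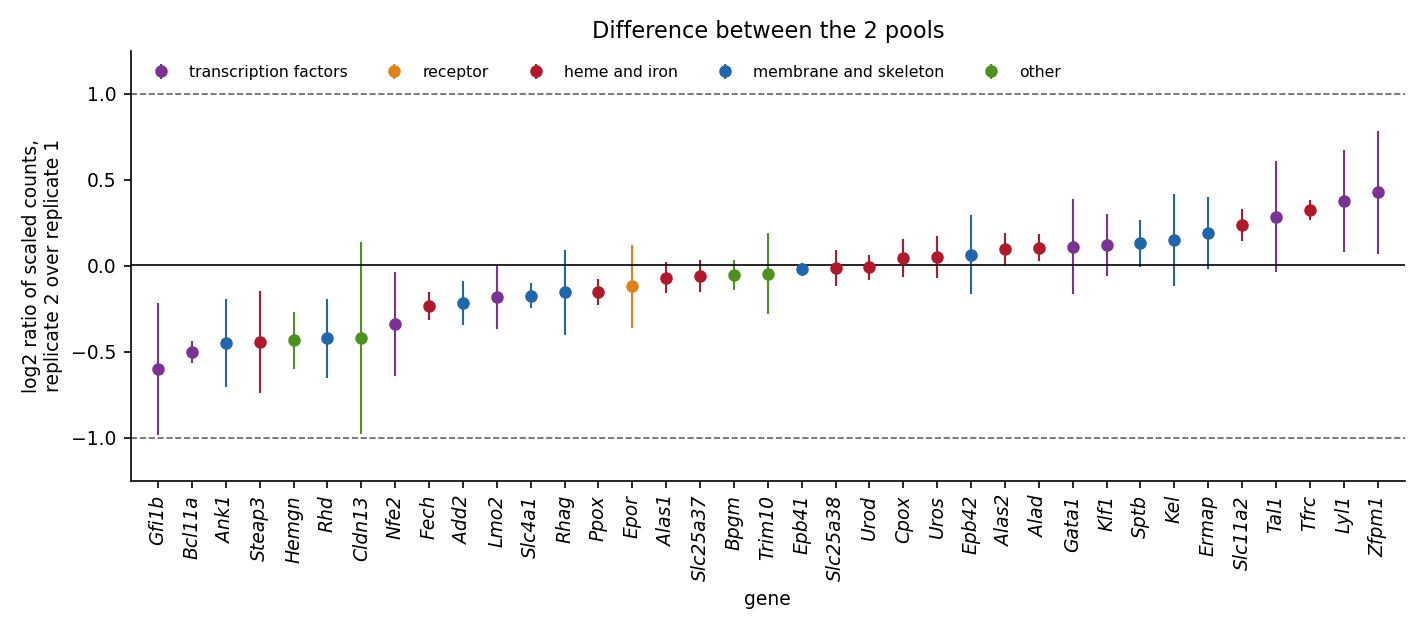
Log2 ratio of TMM-scaled counts of replicate 2 over replicate 1 for each member, coloured by class and ordered by size, with bars for the counting interval, a solid line at the median of all genes and dashed lines at 2-fold. No member lies past 2-fold, and the ratios run from -0.60 for Gfi1b to 0.43 for Zfpm1.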

How the data were processed

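Expected counts per gene and TPM per gene and transcript were deposited by the authors for each library, with the posterior mean TPM and the percent of each gene held by each transcript. TPM was scaled by the authors over all features of a file, spike-ins included. Per the labels the assembly was mm10, and per the accompanying notes the annotation was GENCODE M4. For the aligner and quantifier, the tool names are not given in the sources used here. A table held 69691 features, of which 43346 were Ensembl genes and 96 were spike-ins, which took 3.46% of the counts in replicate 1 and 3.94% in replicate 2. Symbols and positions came from GENCODE M21 on GRCm38, matched by identifier without version.

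Expected counts were rounded and scaled with TMM (edgeR 4.0.16), and log2 ratios used a prior count of 2 and genes whose mean count reached 50. Levels were compared as TPM, with a pseudocount of 0.1 for pairs. DESeq2 1.42.0 gave size factors for an alternative. The ratio and interval code was tested on simulated data. Named were all members, both genes of each pair, and up to 3 highest and 1 lowest gene of each other list. Single cell type markers, B4galt3, Apex2 and Slc40a1 were named after their values were seen. Results of some genes that the rule took are not reported here. The members, lists and pairs were chosen with earlier results of these data known. Intervals cover counting error or pooled replicate spread only, and the labels call the pools biological replicates.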

Additional observations from a re-analysis of the deposited data

How the results depend on the processing

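With 1 group of 2 pools, no difference between pools could be tested, and the depth leaves genes such as Gfi1b and Cldn13 with wide counting intervals. At a threshold of 5 TPM in both pools, 23 members were detected in place of 37, while 0.5 TPM, the posterior mean TPM and either pool alone kept 37. The share of all protein coding genes was not taken under these settings, so the counts describe the members only. The median level was 11.4 to 12.2 TPM in single pools. A rescaling of TPM meant to leave out globins put it at 15.4 TPM. The 8 globins summed to 15872 TPM in replicate 1 and 13804 in replicate 2. That is too little of a library to give this rise by their removal alone. What else the rescaling changed was not established, so the value is no measure of the share or the effect of globins. At 1.5-fold, 1 member, Gfi1b, was apart between the pools, as were 4.64% of all genes. Spike-in scaling moved the median log2 ratio of the members to -0.26. Leaving out 1 pool gave 22 to 24 pairs beyond the spread, and Alas2 over Alas1 ranged from -0.14 without replicate 2 to 0.26 without replicate 1, where it passed. Zfpm1 over Zfpm2 passed at 1.08 with the posterior mean TPM and at 1.11 without replicate 1. A pseudocount of 1 lowered the log2 difference of Tfrc over Tfr2 from 5.43 to 4.58 and brought Ank1 over Ank2 to -3.19 and Ank1 over Ank3 to -3.59, and the posterior mean TPM put Slc11a2 over Slc11a1 at 3.06. All pairs except Alas2 over Alas1 and Zfpm1 over Zfpm2 kept their direction and their side of the spread under a pseudocount of 1, the posterior mean TPM and either pool alone. No paired analysis was possible because the series has 1 group.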
